A study of Mus musculus with 10 samples.

Results

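The NF-κB family was examined in adipocyte precursors (APs) incubated with interleukin-4 (IL-4). It was represented by 10 genes taken by symbol, namely the 5 subunit genes Nfkb1, Nfkb2, Rel, Rela and Relb and the 5 inhibitor genes Nfkbia, Nfkbib, Nfkbie, Nfkbiz and Tnfaip3, of 18384 genes listed in any mRNA-seq library. The rule that selects them uses names and no measured value, and the set was proposed with earlier results of these data known. All 10 were listed in every library and all 10 passed the filter on low counts. The APs came from subcutaneous white adipose tissue of C57BL/6J mice, from which cells with CD45 or CD31 on their surface had been removed before cells with SCA-1 were selected. 3 control cultures (replicates 1 to 3) and 3 cultures with IL-4 in the medium from the day after seeding (replicates 4 to 6) were harvested on day 4, and polyadenylated RNA was sequenced. The ages of the mice and the number pooled per culture are not given in the sources used here. Nothing says that the cultures came from separate animals, so p-values set group differences against the spread between these cultures only.

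NF-κB proteins bind DNA as dimers of 2 subunits. In unstimulated cells most dimers are held in the cytoplasm by inhibitors of the IκB family. Receptors for TNF, interleukin-1 and bacterial products activate the IκB kinase (IKK) complex, which marks IκB for destruction and frees the dimers. The precursors encoded by Nfkb1 and Nfkb2 act as inhibitors themselves until their C-terminal parts are removed. Several inhibitor genes are NF-κB targets, so that the pathway limits its own activity. In adipose tissue the pathway is best known for inflammatory gene expression in macrophages and in stressed fat cells.

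Control libraries held 28526782 to 28674604 expected counts and IL-4 libraries 28914003 to 29057787. IL-4 replicate 6 stood apart from the other libraries of its group by transcript length. Its normalized counts lay above theirs by a median of 0.26 on the log2 scale over 3106 genes with transcripts shorter than 2000 bases, and below theirs by a median of -0.25 over 3544 genes longer than 4000 bases. Control replicate 3 differed the same way, by 0.13 and -0.11. Of the members, Nfkbia (1592 bases on average) and Nfkbib (1399 bases) are in the short class and Nfkb1 (4128 bases) and Tnfaip3 (4435 bases) in the long class. Results that rest on these libraries are given with and without them. Markers of macrophages were measured beside those of APs. All 14 macrophage markers had reads in every library, and their summed level was 4351 to 5672 FPKM (fragments per kilobase of transcript, scaled to library size) in control and 1745 to 2345 FPKM in IL-4 libraries. With IL-4, 12 of the 14 were lower and 1, Mrc1, was higher (edgeR adjusted p under 0.05), beside 18.4% and 19.0% of all genes tested. Ptprc, which encodes CD45, averaged 18.29 FPKM in control and 8.22 FPKM in IL-4 cultures, and Cx3cr1 15.99 and 0.04 FPKM. The fall was smaller for Adgre1 (54.97 and 41.20 FPKM) and Itgam (46.21 and 33.95 FPKM). Cd68 (247.44 and 287.93 FPKM, not called) and Mrc1 (93.39 and 145.54 FPKM) averaged higher with IL-4. Of the 11 AP markers, 7 were higher, 2 were lower and 2 were not called by the same test, against the same shares over all genes. Ly6a (SCA-1) averaged 120.49 and 244.74 FPKM in control and IL-4 cultures and Pdgfra 55.31 and 71.43 FPKM, and the 2 that were lower were Pdgfrb (189.84 and 106.64 FPKM) and Lum (23.62 and 13.72 FPKM). Lymphocyte markers summed to at most 1.25 FPKM in any library and endothelial markers to at most 16.2 FPKM. In such bulk samples, fewer cells of a type and less RNA per cell cannot be told apart.

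Promoter sequence is shown because several members are textbook NF-κB targets, so that the binding motif of the family can be looked at in the family itself. RefSeq promoter windows (250 bases before to 50 after a transcript start, GRCm38.p6) were matched by symbol for 7 of the 10 members, in 10 windows. Nfkb1, Relb and Nfkbiz had no matched window. The κB consensus, searched on both strands, was present in windows of 5 of the 7, against 9.55% of all 27025 genes and 8.46% of all 32851 windows. One stretch per gene is printed, 5′ to 3′ on the strand of the gene, with the letters that match the consensus in capitals, overlapping matches being merged. Positions count from the base at the transcript start, which is 0.
Nfkb2, chr19:46304689-46304718, plus strand, first capital at -39: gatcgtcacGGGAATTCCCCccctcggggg
Rel, chr11:23771041-23771070, minus strand, first capital at -92: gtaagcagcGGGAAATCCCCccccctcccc
Nfkbia, chr12:55492657-55492686, minus strand, first capital at -29: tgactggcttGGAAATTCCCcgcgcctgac
Nfkbie, chr17:45555584-45555613, plus strand, first capital at -106: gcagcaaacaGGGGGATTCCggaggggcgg
Tnfaip3, chr10:19015403-19015432, minus strand, first capital at -12: aatttccatcGGAAATCCCCctgttggcaa
Rela and Nfkbib did not hold the consensus in their windows. These are matches of letters in short windows, with no measurement of binding.

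With IL-4, Nfkb1 was the member that rose, by 1.79-fold, and 2 inhibitors fell, Nfkbie to 0.59-fold and Nfkbiz to 0.81-fold of control. The other 7 members did not pass the test. The test was edgeR's quasi-likelihood test on rounded expected counts with TMM scaling, a call being a Benjamini-Hochberg adjusted p under 0.05 over all 14009 genes tested. Over all genes the same rule called 19.0% higher and 18.4% lower, so that the 1 of 10 members called higher and the 2 of 10 called lower were shares below and near those of all genes. No member was called beyond a log2 fold change of 1 by edgeR, by DESeq2, or at an unadjusted p under 0.05, which 4 members reached. Of all genes tested, 11.0% were called beyond that size. The median log2 fold change of the 10 members was -0.05, beside 0.003 over all genes. With library totals in place of TMM, the median of all genes shifted to -0.17 and the calls over all genes went from 2663 higher and 2582 lower to 1704 higher and 4963 lower. The values of members given with library totals carry that shift. Without control replicate 3 and IL-4 replicate 6, 1 member was called higher and 3 lower, while the shares over all genes also went up, to 25.5% higher and 25.1% lower.

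**Figure D1:**
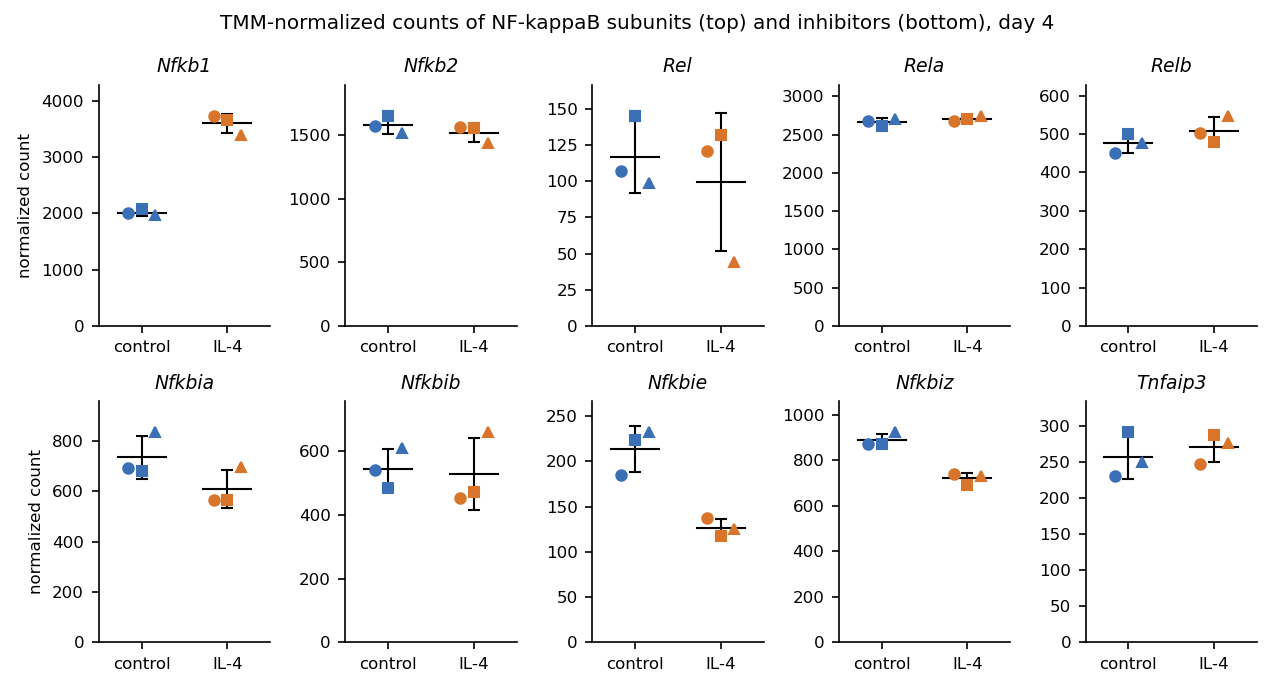
TMM-normalized counts (y axis, from 0) of the 5 subunit genes (top) and the 5 inhibitor genes (bottom) in the 3 control (blue) and 3 IL-4 (orange) libraries; circle, square and triangle are replicates 1, 2 and 3 of control and 4, 5 and 6 of IL-4, and bars are the mean ± SD. The groups are separate for Nfkb1, Nfkbie and Nfkbiz and overlap for the other 7 members.

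Among the subunits, Nfkb1 (Entrez 18033, chr3:135584655-135691969, GRCm38.p6) encodes the precursor of the DNA-binding partner of most canonical dimers. Its normalized counts were 2000, 2081 and 1963 in control replicates 1 to 3 and 3730, 3662 and 3401 in IL-4 replicates 4 to 6. Every IL-4 library lay above every control library, with IL-4 replicate 6 the lowest of its group. The means were 2015 ± 60.4 and 3597 ± 173 (SD, n = 3 each), and the log2 fold change was 0.84 (SE 0.06, 95% interval 0.70 to 0.98, edgeR adjusted p = 2.16e-05). Of all genes tested, 25.2% had every IL-4 library above every control library and 25.3% every IL-4 library below. Nfkb1 was called higher under all 14 alternatives of scaling, filter, tool and left-out libraries, with log2 fold changes of 0.63 to 0.88.

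Nfkb2 (Entrez 18034, chr19:46300994-46312400) encodes the precursor of the partner of RelB in the non-canonical pathway. Normalized counts of Nfkb2 were 1575, 1652 and 1516 in control and 1564, 1561 and 1437 in IL-4 libraries. The groups overlapped. The log2 fold change was -0.06 (SE 0.06, 95% interval -0.21 to 0.09, edgeR adjusted p = 0.538), which leaves room for a fall to 0.87-fold or a rise to 1.07-fold. With library totals it was -0.23 (edgeR adjusted p = 0.0138), close to the shift of -0.17 that this scaling gave the median gene. Nfkb1 and Nfkb2 both encode precursors, and only the first of them passed the test with TMM.

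Rela (Entrez 19697, chr19:5637442-5648134) encodes a main activating subunit of canonical dimers, with a strong transactivation domain. Its normalized counts were 2681, 2607 and 2708 in control and 2680, 2705 and 2743 in IL-4 libraries. The control and IL-4 ranges overlapped. The log2 fold change was 0.02 (SE 0.05, 95% interval -0.10 to 0.14, edgeR adjusted p = 0.758) and its sign turned with library totals (-0.15, edgeR adjusted p = 0.0568). This interval was the narrowest of the 10 members, and it allows a change of no more than 0.94- to 1.10-fold with TMM.

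Relb, the subunit of the non-canonical dimers, had normalized counts of 451, 499 and 477 in control and 502, 478 and 547 in IL-4 libraries. The groups overlapped, with a log2 fold change of 0.10 (SE 0.08, 95% interval -0.09 to 0.29, edgeR adjusted p = 0.387) that was -0.07 with library totals. Rel encodes c-Rel, a subunit best known from lymphoid and myeloid cells, and was the least abundant member. It had normalized counts of 107, 145 and 98.5 in control and 121, 132 and 44.4 in IL-4 libraries. IL-4 replicate 6 was the low library, and its 2 companions lay within the control range. The log2 fold change was -0.24 with an SE of 0.35 (95% interval -1.05 to 0.57, edgeR adjusted p = 0.635), and without IL-4 replicate 6 it was 0.12. Changes of Rel within this interval could not be told from the spread between libraries.

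Among the inhibitors, Nfkbie (Entrez 18037, chr17:45555700-45563169) encodes IκBε, a cytoplasmic IκB known to hold back dimers of RelA and c-Rel. It had normalized counts of 185, 224 and 232 in control and 137, 118 and 125 in IL-4 libraries. All IL-4 libraries were below all control libraries. The means were 214 ± 24.8 and 127 ± 9.36 (SD, n = 3 each), and the log2 fold change was -0.75 (SE 0.12, 95% interval -1.04 to -0.47, edgeR adjusted p = 0.00189). It was the largest fall among the 10 members and was called under all 14 alternatives, at log2 fold changes of -0.92 to -0.65.

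Nfkbiz (Entrez 80859, chr16:55811375-55838954) encodes IκBζ, a nuclear protein that joins NF-κB dimers at the DNA and is needed for a secondary set of inflammatory genes, so that it can act as a co-activator as well as an inhibitor. Its normalized counts were 872, 874 and 923 in control and 741, 693 and 730 in IL-4 libraries. The groups did not overlap, and the spread within each was small. The log2 fold change was -0.30 (SE 0.06, 95% interval -0.45 to -0.15, edgeR adjusted p = 0.007), with means of 890 ± 29 and 721 ± 25.4 (SD, n = 3 each). It kept its call under all 14 alternatives, at -0.48 to -0.27.

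Nfkbia (Entrez 18035, chr12:55489409-55492647) encodes IκBα, the classical inhibitor that is degraded and remade within each round of activation. The control libraries had normalized counts of 691, 682 and 834 and the IL-4 libraries 565, 564 and 697. The high library of each group was the one with higher counts for short transcripts, control replicate 3 and IL-4 replicate 6, and IL-4 replicate 6 reached into the control range. The log2 fold change was -0.27 (SE 0.12, 95% interval -0.54 to -0.01, edgeR unadjusted p = 0.0465, adjusted p = 0.103). It was called lower without IL-4 replicate 6 (-0.38, edgeR adjusted p = 0.00808), without both of these libraries (-0.28, 0.00253) and after the trend with transcript length within the groups had been removed (-0.28, 0.0054), the last 2 of which were chosen after the data had been seen. It was not called without control replicate 3 alone (-0.18, edgeR adjusted p = 0.286) or without IL-4 replicate 4 or 5 (-0.21 each, edgeR adjusted p = 0.258 and 0.281). With library totals it was -0.45 (edgeR adjusted p = 0.0203). Removal of the length trend leaves the group means nearly as they were by construction and narrows the spread. The call on Nfkbia thus depended on the scaling and on how these 2 libraries were treated.

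Nfkbib encodes IκBβ, which is degraded more slowly than IκBα. Normalized counts of Nfkbib were 540, 484 and 610 in control and 454, 471 and 659 in IL-4 libraries. The highest value of each group was again control replicate 3 and IL-4 replicate 6. The log2 fold change was -0.04 (SE 0.15, 95% interval -0.40 to 0.31, edgeR adjusted p = 0.848), and its sign turned when control replicate 3 (0.04), IL-4 replicate 4 (0.06) or IL-4 replicate 5 (0.04) was left out. Without IL-4 replicate 6 it was -0.23 (edgeR unadjusted p = 0.0423, adjusted p = 0.086). Tnfaip3 encodes A20, an enzyme that edits ubiquitin chains and shuts off signalling upstream of IKK. Its normalized counts were 231, 291 and 250 in control and 248, 287 and 276 in IL-4 libraries. These ranges overlapped almost wholly, at a log2 fold change of 0.07 (SE 0.11, 95% interval -0.19 to 0.33, edgeR adjusted p = 0.664) that became -0.10 with library totals.

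**Figure D2:**
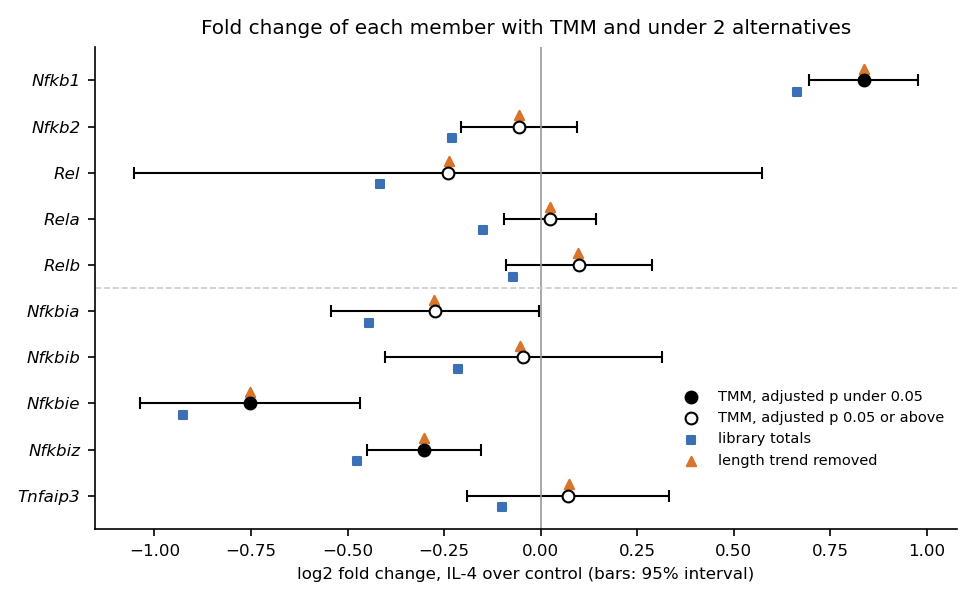
Log2 fold change of each member, IL-4 over control (x axis), with its 95% interval from edgeR with TMM (circles, filled where the adjusted p is under 0.05), with library totals (blue squares) and after removal of the within-group trend with transcript length (orange triangles). Nfkb1 at 0.84, Nfkbie at -0.75 and Nfkbiz at -0.30 are the filled points, and library totals place every member lower.

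Levels can be compared between genes only per transcript length, for which the authors' FPKM were used. Rela was the most abundant member in both groups, at 37.15 ± 1.05 FPKM in control and 33.47 ± 0.94 FPKM with IL-4 (SD, n = 3 each), above 85.3% of tested genes in control. Below it in control came Nfkb2 at 19.09 ± 0.63, Nfkb1 at 18.25 ± 0.39, Nfkbia at 17.79 ± 2.21 and Nfkbib at 15.08 ± 1.89 FPKM. Nfkb2 overlapped Nfkb1 in its libraries, and Nfkbia overlapped all 3 others. Nfkbib lay below Nfkb2 and Nfkb1 in every library. Nfkbiz at 9.23 ± 0.39, Relb at 8.16 ± 0.39 and Nfkbie at 3.32 ± 0.39 FPKM followed, each separate from its neighbours. Tnfaip3 at 2.17 ± 0.24 and Rel at 1.71 ± 0.35 FPKM were the lowest and overlapped. With IL-4, Nfkb1 at 28.89 ± 0.93 FPKM stood alone in the second place, and Nfkb2 at 16.30 ± 0.47 FPKM came next. Nfkb2 was separate from Nfkbia but not from Nfkbib. In IL-4 replicate 6 Nfkbib had 16.46 FPKM and Nfkb2 15.75 FPKM. Nfkbia at 13.05 ± 1.87 and Nfkbib at 12.97 ± 3.03 FPKM overlapped. Relb at 7.75 ± 0.66 lay above Nfkbiz at 6.65 ± 0.32 FPKM, the reverse of control. Tnfaip3 at 2.02 ± 0.16, Nfkbie at 1.75 ± 0.13 and Rel at 1.28 ± 0.60 FPKM came last, each overlapping the next. The FPKM of 5 members lay lower in every IL-4 library than in any control library, the authors' FPKM being scaled by library totals, and 1 member, Nfkb1, lay higher. Over all genes tested the same held for 43.0% below and 14.8% above. In TMM-normalized counts 2 members lay lower in every IL-4 library, beside 25.3% of all genes.

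**Figure D3:**
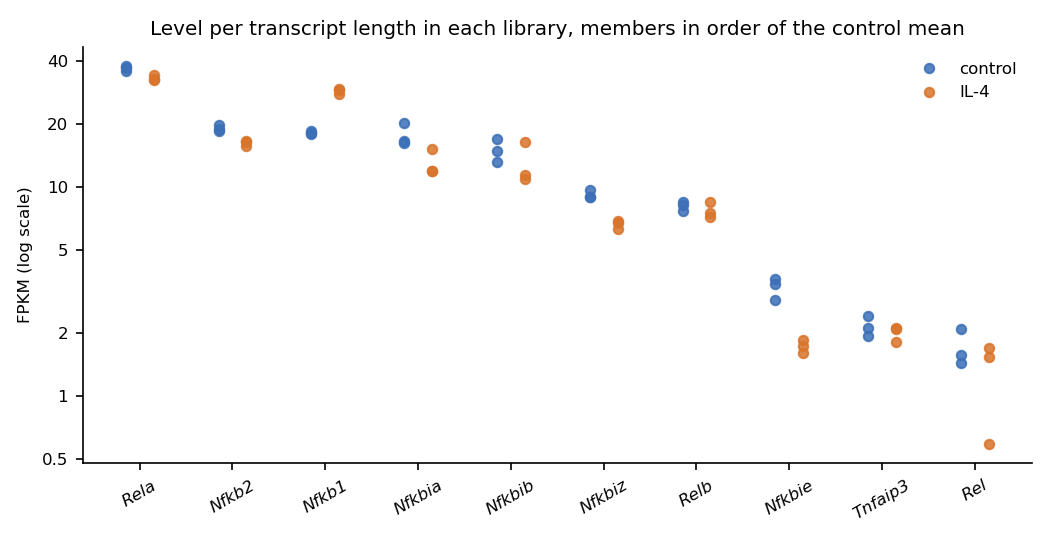
FPKM of each member (y axis, log scale) in the 3 control (blue) and 3 IL-4 (orange) libraries, ordered from left to right by the control mean. Rela leads in both groups at 33 to 38 FPKM, Nfkb1 is the gene whose IL-4 points stand above its control points, and the lowest point is Rel in IL-4 replicate 6 at 0.59 FPKM.

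A ratio of members within 1 library does not depend on how libraries are scaled against each other. The ratio of Nfkb1 to Nfkb2 in FPKM was 0.955, 0.945 and 0.969 in control and 1.79, 1.76 and 1.77 in IL-4 libraries. The 2 precursor genes were thus near parity in every control library and Nfkb1 was ahead in every IL-4 library. The ratio of Nfkb1 to Rela was 0.485, 0.519 and 0.472 in control and 0.905, 0.88 and 0.807 in IL-4 libraries, again without overlap. The ratio of Nfkb2 to Rela averaged 0.515 ± 0.0317 in control and 0.487 ± 0.0273 with IL-4 (SD, n = 3 each), and its groups overlapped. Of the summed FPKM of the 5 subunits, Nfkb1 made up 21.6% ± 0.337 in control and 32.9% ± 0.894 with IL-4, and Rela 44% ± 1.51 and 38.2% ± 1.26.

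For the inhibitors, ratios to Rela were taken only for Nfkbia, Nfkbiz and Nfkbie, the ones with the largest falls. Nfkbib and Tnfaip3 were left out, and the share of such separations over all genes was not computed. The ratio of Nfkbia to Rela was 0.447, 0.454 and 0.534 in control and 0.366, 0.361 and 0.44 in IL-4 libraries. The groups came close, at 0.447 and 0.44, without overlap. The ratio of Nfkbiz to Rela averaged 0.248 ± 0.00616 and 0.199 ± 0.00798, and that of Nfkbie to Rela 0.0894 ± 0.0106 and 0.0522 ± 0.00425 (SD, n = 3 each), both without overlap. The summed FPKM of the cytoplasmic inhibitors Nfkbia, Nfkbib and Nfkbie over that of the 5 subunits was 0.412, 0.389 and 0.487 in control and 0.282, 0.286 and 0.383 in IL-4 libraries. The highest IL-4 value, 0.383, lay just below the lowest control value, 0.389. Of the genes in this ratio, Nfkbia and Nfkbib had not passed the test, and the subunit sum includes Nfkb1, which rose. Ratios of a short to a long transcript carry the length trend of these libraries. Since ratios were taken for only some members, the count below is no measure of the whole set. For 5 of the 6 ratios of single genes tested, the two-sided exact permutation p was 0.1 (0.12 after adjustment over the 6), which is the smallest that 3 against 3 libraries allow, and for Nfkb2 to Rela it was 0.4.

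**Figure D4:**
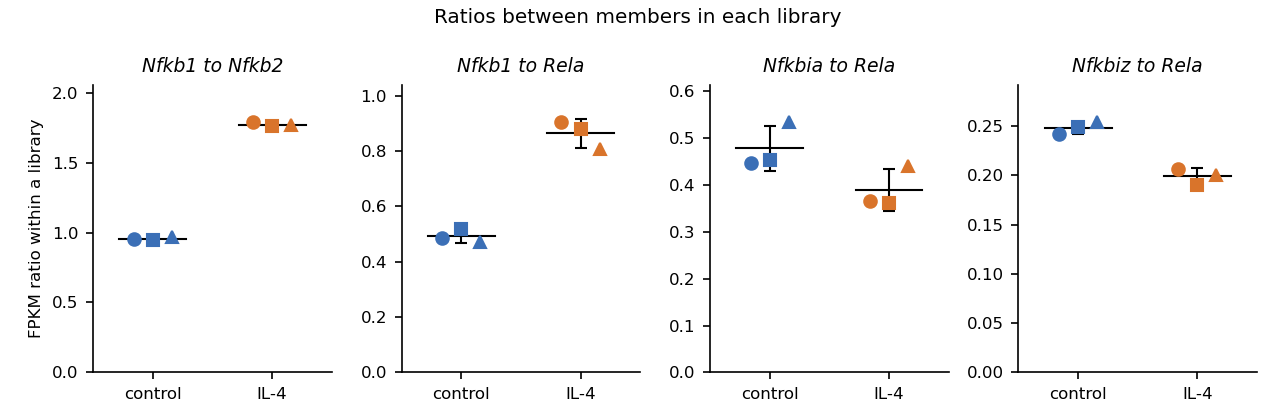
FPKM ratios within each library (y axes, from 0) of Nfkb1 to Nfkb2, Nfkb1 to Rela, Nfkbia to Rela and Nfkbiz to Rela in control (blue) and IL-4 (orange) libraries, with the mean ± SD; symbols mark replicates 1, 2 and 3 of control and 4, 5 and 6 of IL-4. Nfkb1 to Nfkb2 moves from a mean of 0.956 to 1.77, and the ratios of Nfkbia and Nfkbiz to Rela are lower with IL-4.

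The rest of the pathway was taken from lists of 53 upstream components, ligases, adaptors and regulators, all of them tested. 9 rose and 10 fell, and 34 were not called, with a median log2 fold change of -0.02, beside 19.0% of all genes called higher and 18.4% lower. Without control replicate 3 and IL-4 replicate 6, 15 rose and 13 fell, beside 25.5% and 25.1% of all genes, and with library totals 7 were called higher and 22 lower. Of the 3 other IκB-like nuclear proteins, 1 was called. Nfkbid, which encodes another nuclear IκB that assists NF-κB at DNA, fell at a log2 fold change of -1.11, with means of 104 ± 20.9 and 48.2 ± 7.55 normalized counts (SD, n = 3 each, SE 0.20, edgeR adjusted p = 0.00299). With Nfkbie and Nfkbiz it was thus among the IκB-type genes with less RNA after IL-4.

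Of the 11 genes of the IKK complex and its upstream kinases, 1 rose and 3 fell, beside 19.0% and 18.4% of all genes. Without IL-4 replicate 6, 2 were called higher, and without both control replicate 3 and IL-4 replicate 6, 4 were. Without control replicate 1 or control replicate 2, 1 was called lower. With library totals and in both limma settings, 5 were called lower. Map3k8 encodes the kinase TPL2, which the Nfkb1 precursor binds and keeps inactive. Its mean was 146 ± 12.4 normalized counts in control and 380 ± 24.2 with IL-4 (log2 fold change 1.37, SE 0.10, edgeR adjusted p = 2.31e-05), so that it moved in the same direction as Nfkb1. Map3k7 (the kinase TAK1) and its partner Tab2 fell at a log2 fold change of -0.27 each (edgeR adjusted p = 0.022 each), and both calls were lost when control replicate 1 or control replicate 2 was left out (edgeR adjusted p = 0.0772 and 0.0883 for Map3k7). Tab2 also lost its call without control replicate 3 (edgeR adjusted p = 0.0515). Of 9 ligases and LUBAC subunits, which build ubiquitin chains on the receptor complexes, 1 fell with TMM. With library totals and in both limma settings, 4 were called lower. The fall with TMM was Birc3 at -0.26 (edgeR adjusted p = 0.0167), whose call was lost without control replicate 2 or 3 or IL-4 replicate 4 or 5 (edgeR adjusted p of 0.0602, 0.0551, 0.0539 and 0.0802).

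Of 15 receptor adaptors and proximal kinases, 4 rose and 4 fell, beside 19.0% and 18.4% of all genes. With library totals and in both limma settings, 7 were called lower, and with the length trend removed, 7 were called higher. Ticam2, an adaptor of Toll-like receptor 4, rose from 183 ± 14.1 to 323 ± 39 normalized counts, and Card10, a scaffold that couples G protein-coupled receptors to NF-κB, from 121 ± 5.68 to 209 ± 32.5 (edgeR adjusted p = 0.000928 and 0.00235). Card9, the related scaffold of myeloid cells, fell from 278 ± 51.1 to 165 ± 28, and Irak2, a kinase of the interleukin-1 receptor pathway, from 798 ± 38 to 538 ± 38.6 (edgeR adjusted p = 0.0091 and 0.000767). The 2 scaffolds thus moved in opposite directions. Traf1 fell further than Card9 and Irak2, at a log2 fold change of -2.08 (edgeR adjusted p = 0.000548). Its mean was below the 50 normalized counts used as the cut for naming genes. Of 15 other negative regulators, 4 rose and 1 fell, beside 19.0% and 18.4% of all genes. With library totals and in both limma settings, 2 were called higher and 5 lower. Calls over all 14009 genes turned the same way, to 1704 higher and 4963 lower with library totals. Without control replicate 1 or control replicate 2, 2 of these regulators were called higher. Without control replicate 3 or IL-4 replicate 6, 2 of them were called lower. The rises were largest for Tnip3, a partner of A20 (log2 fold change 1.09, SE 0.16, edgeR adjusted p = 0.000892), and Zc3h12a, which encodes the RNase Regnase-1 (0.64, SE 0.08, edgeR adjusted p = 0.000385). The fall was Pdlim2, a ligase known to act on RelA (-0.47, SE 0.06, edgeR adjusted p = 0.000729).

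Of 34 genes listed as NF-κB targets, 27 were tested, of which 11 rose and 8 fell, with a median log2 fold change of 0.10. Both shares were above those of all genes tested, of which 19.0% were called higher and 18.4% lower. The list was chosen with earlier results of these data known, so these shares cannot show that targets changed more often than other genes. The targets did not move one way. Il1a rose at a log2 fold change of 2.40 (edgeR adjusted p = 0.0018), with a mean below the cut of 50 normalized counts. The genes that follow were above that cut. Nos2, the inducible nitric oxide synthase, rose from 14.2 ± 5.79 to 165 ± 26.7 normalized counts (11.50-fold, edgeR adjusted p = 2.02e-05), and Ccl7, a monocyte chemokine, rose from 2101 ± 186 to 6243 ± 1094 (2.97-fold, edgeR adjusted p = 3.99e-05). Tnf, itself an activator of the pathway, fell from 215 ± 18.3 to 22.6 ± 5.62 normalized counts, 9.51-fold lower (edgeR adjusted p = 4.16e-06). Cxcl16, a chemokine of macrophages, fell from 1656 ± 161 to 349 ± 48.8, 4.73-fold lower (edgeR adjusted p = 3.84e-06). The summed level of the macrophage markers was also lower with IL-4, as given above. In that sum, Lyz2 alone averaged 2738.51 FPKM in control and 776.41 FPKM in IL-4 cultures. Log2 fold changes of single markers ran from -8.65 for Cx3cr1 to 0.82 for Mrc1. The part of macrophages in the falls of Nfkbie, Nfkbiz, Nfkbid, Card9, Tnf and Cxcl16 was not tested.

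**Figure D5:**
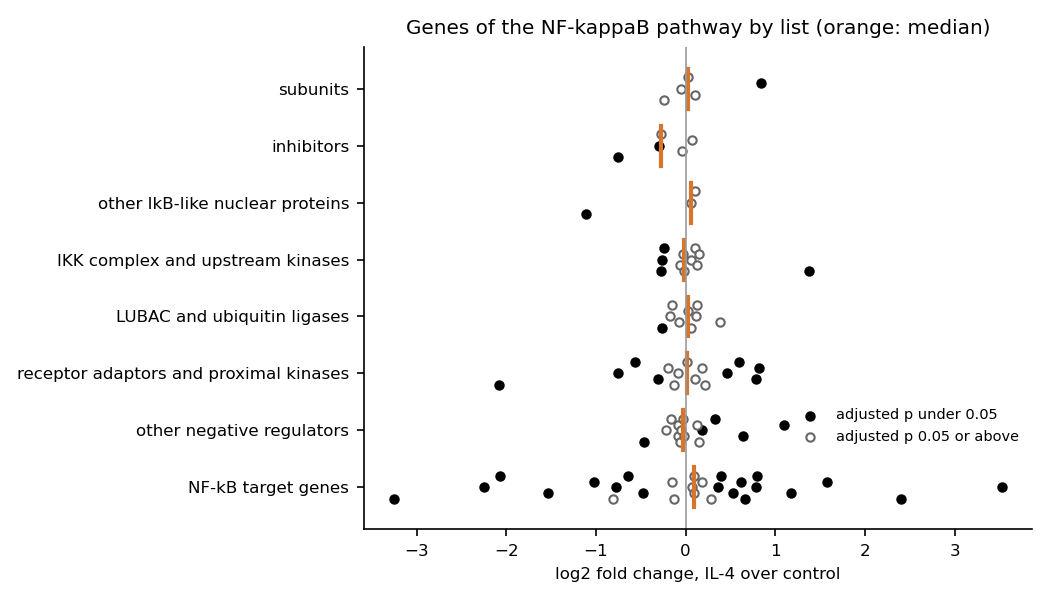
Log2 fold change, IL-4 over control (x axis), of every tested gene of the subunits, the inhibitors and 6 further pathway lists (rows), filled where the edgeR adjusted p is under 0.05, with the list median in orange. The medians lie between -0.27 for the inhibitors and 0.10 for the targets, and the target genes spread widest, from Tnf at -3.25 to Nos2 at 3.52.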

How the data were processed

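Groups were taken from the labels. mRNA libraries (3 control, 3 IL-4, day 4) were sequenced on BGISEQ-500, and small RNA libraries (2 and 2, day 2) were read for the closing section. The authors cleaned the reads with SOAPnuke, mapped them to mm10 with HISAT and ran Bowtie2 and RSEM on RefSeq transcripts. StringTie is also named in the submitters' processing notes. Per gene, the deposited expected counts carry no normalization. The deposited FPKM were scaled by the authors to transcript length and library total. Of the expected counts above 0, 87% were whole, as were 59 of 60 values of the members (tolerance 1e-09). A gene that a library does not list was set to 0, and 1 row per library without a gene (at most 0.00022% of counts) was dropped. In the deposited small RNA files, raw counts stand per precursor, and the largest was used for each mature miRNA.

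After rounding, genes were kept by filterByExpr (minimum count 10, minimum total 15), scaled by TMM and tested with edgeR 4.0.16 in R 4.3.3, with Benjamini-Hochberg adjustment over all genes. Normalized counts are counts brought to the mean TMM-scaled library size. Depth limits single values. The 95% intervals are for the difference between the groups, with an error that rests on the spread between libraries. Alternatives were DESeq2 1.42.0, upper-quartile scaling, library totals, no filter, limma 3.58.1 with log2(FPKM + 1) or log2(FPKM + 0.1), counts per kilobase for the order of levels, each library left out and, for miRNAs, a replicate block and sums over precursors. Leaving out 2 libraries together and removing the length trend within groups (offsets from a lowess curve of span 0.3) were chosen after seeing the data. All 10 members and 6 miRNAs are named, and from each further pathway list the 2 largest rises and falls with adjusted p under 0.05 and a mean of at least 50 normalized counts. Members and lists were chosen with earlier results of these data known. The tests were tried on simulated data. Coordinates and sequences are RefSeq's on GRCm38.p6, the assembly of mm10. Python 3.11.15 with pandas 2.3.3 and scipy 1.17.1 was used for the rest.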

Additional observations from a re-analysis of the deposited data

How the results depend on the processing

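Nfkb1, Nfkbie and Nfkbiz kept direction and call under all 14 alternatives. With library totals, limma on log2(FPKM + 1) and limma on log2(FPKM + 0.1), the members called lower numbered 4, 5 and 4, the genes called higher 1704, 1697 and 1694, the genes called lower 4963, 4916 and 4904, and the other pathway components called lower 22 each. In these scalings the median of all genes was -0.17, -0.13 and -0.17. In the same order, Nfkb2 was called lower at log2 fold changes of -0.23, -0.22 and -0.23, Nfkbia at -0.45, -0.42 and -0.45, and the sign turned for Rela (-0.15, -0.15 and -0.15, with an adjusted p of 0.048 in the second), Relb (-0.07, -0.07 and -0.08) and Tnfaip3 (-0.10, -0.07 and -0.10). Nfkbia was called at -0.28 with 2 libraries left out and at -0.28 with the length trend removed, and Rel was 0.01 with 2 libraries left out. Other pathway components called higher were 15 and 14 under those settings. With each library left out in turn, log2 fold changes ran from -0.5 to 0.12 for Rel, -0.38 to -0.18 for Nfkbia, -0.23 to 0.06 for Nfkbib and -0.00 to 0.17 for Tnfaip3. The genes called higher then ranged from 2017 to 3199 and those called lower from 1911 to 3014. Of the 16 other genes named by the rule with the mean-count cut, 13 kept direction and call under all alternatives run. Map3k7, Tab2 and Birc3 lost the call with single libraries left out. The order of the 10 members by level was the same with TMM-normalized counts per kilobase in both groups. The cause of these changes was not tested.

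The mRNA libraries share no replicate numbers. Those of small RNA do, and the deviations of same-numbered libraries correlated at 0.455, with too few pairs to show pairing. With the replicate block, 31 of 640 miRNAs had an adjusted p under 0.05, against 0 without it, none of them among the listed miRNAs (miR-146a-5p at 0.61, adjusted p = 0.0707, and miR-146b-5p at -0.43, adjusted p = 0.0716). The sign of miR-21a-5p turned with library totals (0.06), with no filter (0.02) and with libraries left out (-0.30 to 0.16).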

Other observations

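The small RNA libraries of day 2 hold miRNAs known as targets or regulators of NF-κB, which the comparison of mRNAs did not use. miR-146a is induced by NF-κB, and both miR-146a and miR-146b target upstream adaptors. miR-155 is induced in inflammation, and miR-9 is described as a regulator of Nfkb1. Their mature sequences are printed from RefSeq (GRCm38.p6) with the seed, bases 2 to 8, in capitals, to show that the first pair share a seed.
miR-146a-5p, chr11:43374435-43374456, minus strand: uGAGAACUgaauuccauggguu
miR-146b-5p, chr19:46342790-46342811, plus strand: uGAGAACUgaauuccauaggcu
miR-155-5p, chr16:84714143-84714165, plus strand: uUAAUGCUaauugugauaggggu
miR-9-5p, encoded at 3 loci, one of them chr13:83738821-83738843, plus strand: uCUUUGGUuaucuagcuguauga
miR-146a-5p had 80 and 126 counts in control and 189 and 174 in IL-4 libraries (log2 fold change 0.64, SE 0.28, edgeR adjusted p = 0.834). miR-146b-5p was far more abundant, with 87058 and 103096 counts in control and 79705 and 84964 in IL-4 libraries (-0.43, SE 0.21, edgeR adjusted p = 0.834). The 2 miRNAs of 1 seed thus had fold changes of opposite sign, neither past the test. miR-155-5p had 2949 and 3138 against 3856 and 4811 counts (0.27, SE 0.22, edgeR adjusted p = 0.976), and miR-9-5p 399 and 571 against 742 and 812 (0.48, SE 0.21, edgeR adjusted p = 0.834). miR-21a-5p, the most abundant of the list, had 3362614 and 4330228 counts in control and 4438575 and 4157396 in IL-4 libraries. miR-223-3p, a miRNA of myeloid cells, had 1 and 3 counts in control and 0 and 0 in IL-4 libraries and was not tested. None of the 5 tested was called by edgeR or DESeq2, and 0 of the 5 had an unadjusted edgeR p under 0.05. Over all 640 miRNAs tested edgeR called 0 and DESeq2 12, with 39 at an unadjusted edgeR p under 0.05.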
